A study of Mus musculus with 12 samples.

Results

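Cholesterol and fatty acid synthesis was followed here as a set of 36 genes: 18 enzymes of the sterol pathway, 6 genes of the SREBP system that controls it, 8 enzymes of fatty acid synthesis and 4 genes on the side of the nuclear receptor LXR. They were chosen by name, as a list of the pathway's genes, with earlier results of these data known. Of the 36, 32 were measured by a probe set annotated to 1 gene symbol, out of 22180 such genes on the array, and 31 were bright enough to be tested among 9862 genes. Acat2, Idi1, Scd2 and Nr1h2 were not analysed here, and Abca1 was too dim to be tested.

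The cells were mouse CD8 T cells driven in culture to become Tc17 cells, which make IL-17, or Tc1 cells, the interferon-gamma-making type. The 4 groups were Tc17 STAT3-/-, Tc17 WT, Tc1 STAT3-/- and Tc1 WT, and no age or strain is given in the labels. STAT3-/- cells came from Cd4cre+ STAT3fl/fl mice, in which Cre driven by Cd4 removes floxed STAT3 in developing T cells, the precursors of CD8 cells included. Naive CD8+ cells of both genotypes came from spleen and were mixed in equal numbers before activation, so that they shared a culture. Every culture received anti-CD3 (1 µg/ml) together with anti-CD28 (3 µg/ml) over 4 days. IL-6 and TGFb made Tc17 and IL-12 made Tc1 for 3 days, IL-2 followed for 1 day, and allelic markers then served to sort the genotypes apart. Each group had 3 Affymetrix arrays, named biological 1, biological 2 and technical. The technical array was averaged with biological 2, which left 2 samples a group. Nothing in the labels says whether the biological replicates came from separate mice or cultures, so the p-values cover only how far such samples differ, and that spread may be technical.

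Cholesterol is built from acetyl-CoA through mevalonate, farnesyl units, squalene and lanosterol, and the last steps turn lanosterol into cholesterol. When sterols in the endoplasmic reticulum run low, the escort protein SCAP carries the SREBP precursors to the Golgi, where they are cut to release transcription factors that bind the promoters of these enzymes. When sterols are plentiful, INSIG proteins hold SCAP back, and oxysterols activate LXR, which turns on export genes such as Abca1 and Abcg1. T cells raise sterol and fatty acid synthesis when they are activated and divide.

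Levels are log2 values relative to the median of the 9862 tested genes on the same array, so 0 is a gene of middling brightness and a difference of 1 is 2-fold. A gene was called when limma's adjusted p, by Benjamini-Hochberg over those 9862 genes, was under 0.05. Levels of different genes are not set against each other, because each probe set has its own brightness. The number of arrays limits the precision.

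Some facts of the whole data set bear on what follows. The probe set of Stat3 was lower in STAT3-/- than in WT cells, with differences of -2.97 (adjusted p = 4.62e-06, limma) in Tc17 and -2.67 (adjusted p = 9.65e-05, limma) in Tc1, and whether its probes lie in the deleted exons is not given. The 6 measured CD8 T cell markers averaged 10.47 to 10.75 as deposited on every array and none was called between any groups. Of the CD4 T cell markers, Cd4 was lower in Tc17 STAT3-/- (-0.36, adjusted p = 0.029, limma). The technical array of Tc17 WT stood apart, with a median correlation of 0.971 to the remaining arrays where the rest reached 0.984 to 0.990. Members whose call depended on it are therefore named below, and values without it are given for some members. Genes of the other lists were not read without it. In every group the technical array differed more from biological 2 than biological 2 did from biological 1. The SDs over all tested genes were 0.209 against 0.148 in Tc17 STAT3-/- and 0.352 against 0.191 in Tc17 WT. In Tc1 they were 0.292 against 0.192 in STAT3-/- and 0.247 against 0.144 in WT. Of 6 listed B cell markers, Ighm and Cd79b were tested and both were higher in Tc17 STAT3-/- cells, by 1.65 and 0.66 (adjusted p = 1.48e-05 and 0.00142, limma). The mean deposited level of the 2 tested B cell markers and 3 dim ones was 5.69 to 5.76 in Tc17 STAT3-/- and 5.22 to 5.31 in Tc17 WT, with Ms4a1, Cd79a and Pax5 below the brightness filter throughout. Of 6 myeloid markers, Cd68 alone passed the filter and was lower in Tc17 STAT3-/- (-1.24, adjusted p = 5.09e-05, limma), and neither NK cell marker passed it. The part of these markers in the results below was not tested. In bulk RNA, fewer cells of a type and less RNA per cell cannot be told apart.

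The question of the first comparison was what loss of STAT3 did to these genes in Tc17 cells. Of the 31 tested members, 8 rose in Tc17 STAT3-/- cells over Tc17 WT and 0 fell, where 11% of all tested genes were called higher and 11.3% lower. They were 5 late or early sterol enzymes (Hmgcs1, Cyp51, Msmo1, Nsdhl and Dhcr7), the sterol brake Insig1, the desaturase Fads2 and the exporter Abcg1, by 1.27- to 1.74-fold. Of the 31, 26 had a positive difference, and their median was 0.18, against -0.01 over all tested genes. The direction of the other 23 is not claimed, since none passed the test.

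**Figure D1:**
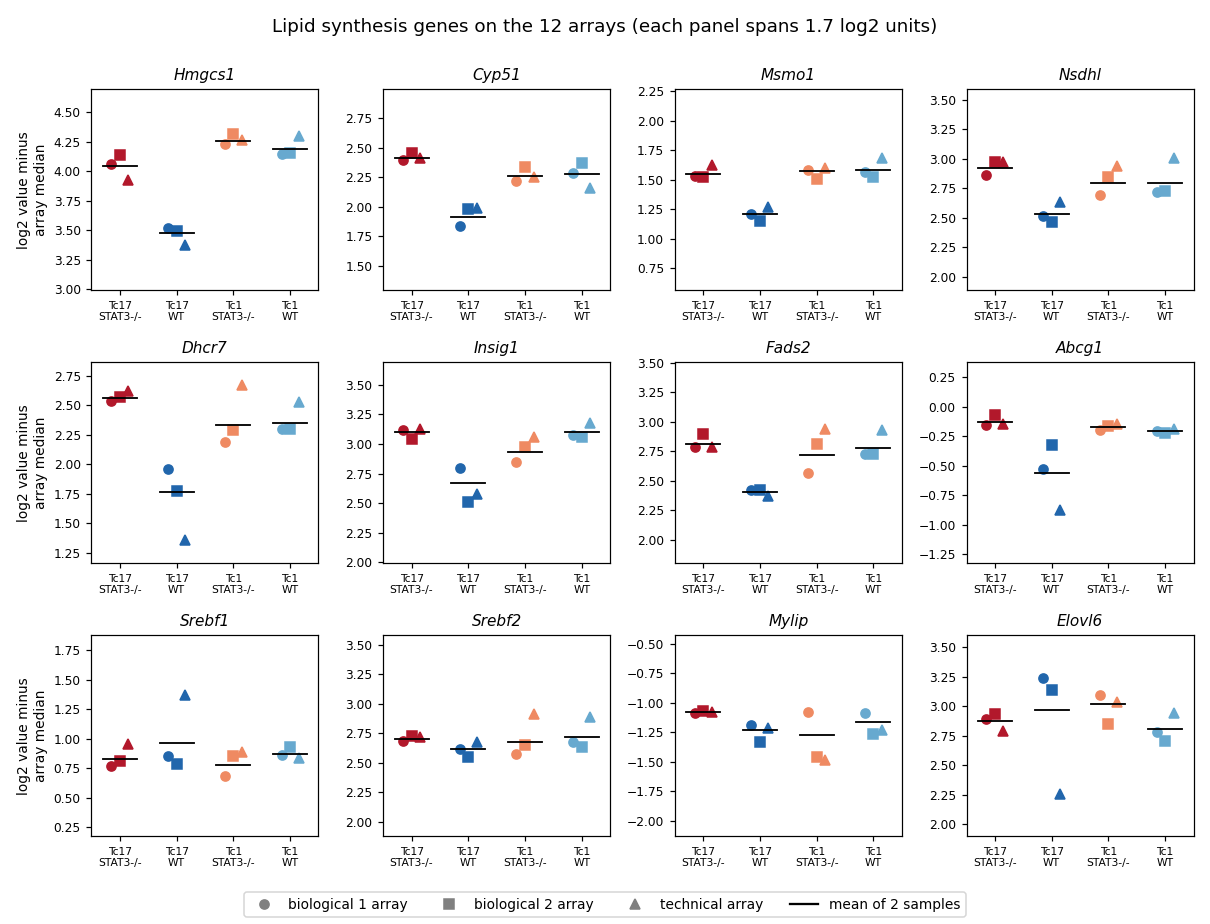
Log2 level relative to the array median (y axis, each panel spanning 1.7 log2 units) of 12 members on the 12 arrays, with groups along the x axis in the order Tc17 STAT3-/-, Tc17 WT, Tc1 STAT3-/- and Tc1 WT. The Tc17 WT arrays of Hmgcs1, Cyp51, Msmo1, Nsdhl, Dhcr7, Insig1, Fads2 and Abcg1 all lie below those of Tc17 STAT3-/-, and the wide spread of Elovl6 in Tc17 WT comes from its technical array at 2.26.

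Hmgcs1 makes HMG-CoA, the precursor of mevalonate. On the biological 1, biological 2 and technical arrays its level was 4.06, 4.14 and 3.92 in Tc17 STAT3-/- cells, against 3.52, 3.49 and 3.37 in Tc17 WT cells. In Tc1 it was 4.23, 4.32 and 4.26 in STAT3-/- cells, against 4.15, 4.16 and 4.29 in WT cells. The Tc17 WT arrays were thus the lowest of the 12, with no overlap between genotypes in Tc17 and overlap in Tc1. The sample means were 4.05 ± 0.02 in Tc17 STAT3-/- and 3.48 ± 0.06 in Tc17 WT (SD, n = 2 each), a rise of 0.57 ± 0.08 (SE, 1.49-fold, adjusted p = 0.00186, limma).

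Cyp51 and Msmo1 remove methyl groups from lanosterol and the sterols that follow it. Cyp51 stood at 2.40, 2.46 and 2.41 in Tc17 STAT3-/- cells, against 1.84, 1.98 and 1.99 in Tc17 WT, and at 2.22, 2.34 and 2.25 in Tc1 STAT3-/- cells, against 2.29, 2.37 and 2.16 in Tc1 WT. All Tc17 STAT3-/- arrays lay above all Tc17 WT arrays and slightly above every Tc1 array as well. The rise was 0.50 ± 0.09 (SE, 1.42-fold, adjusted p = 0.00431, limma, n = 2 each). Msmo1 had 1.53, 1.52 and 1.62 in Tc17 STAT3-/- cells and 1.21, 1.15 and 1.27 in Tc17 WT cells, while its Tc1 arrays read 1.59, 1.51 and 1.60 in STAT3-/- and 1.57, 1.53 and 1.68 in WT. The genotypes did not overlap in Tc17, and Tc17 STAT3-/- lay among the Tc1 arrays. Its rise was 0.34 ± 0.08 (SE, 1.27-fold, adjusted p = 0.0146, limma).

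Nsdhl works in the same demethylation steps, and Dhcr7 makes cholesterol in the final step of one branch. Nsdhl measured 2.86, 2.97 and 2.97 in Tc17 STAT3-/- cells and 2.51, 2.47 and 2.63 in Tc17 WT cells, and in Tc1 2.69, 2.84 and 2.94 in STAT3-/- and 2.72, 2.73 and 3.01 in WT. Again the Tc17 genotypes did not overlap and the Tc1 genotypes did. The rise was 0.39 ± 0.10 (SE, 1.31-fold, adjusted p = 0.0264, limma). For Dhcr7 the arrays gave 2.53, 2.57 and 2.62 in Tc17 STAT3-/- cells, against 1.96, 1.77 and 1.36 in Tc17 WT cells, the low end being the technical array that stood apart. In Tc1 they gave 2.19, 2.29 and 2.67 in STAT3-/- and 2.29, 2.29 and 2.52 in WT, with overlap. Its rise of 0.80 ± 0.14 (SE, 1.74-fold, adjusted p = 0.00491, limma) was the largest of the 31, and was 0.69 (adjusted p = 0.00277, limma) without the Tc17 WT technical array.

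The other 11 tested sterol enzymes were not called in Tc17, and their differences ran between -0.00242 (Mvd, mevalonate decarboxylase) and 0.29 (Pmvk, phosphomevalonate kinase, adjusted p = 0.0859, limma). In the middle of the pathway Sqle, the squalene epoxidase, had 0.11 ± 0.09 and Lss, which closes the sterol rings, 0.06 ± 0.09 (SE). Over the 16 tested sterol enzymes, 15 differences were positive, 5 were called and the median was 0.23. Paired within array kind, the median was 0.28 on biological 1, 0.23 on biological 2 and 0.33 on the technical arrays.

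For 8 of these enzymes the call in Tc17 changed under another scaling, fit or choice of samples, so their arrays are given too, those of Pmvk with the culture comparison. Pmvk was called higher in Tc17 without the Tc17 WT technical array (0.36, adjusted p = 0.0241, limma). Fdps, which makes farnesyl units, had 3.50, 3.58 and 3.64 in Tc17 STAT3-/-, 3.37, 3.35 and 3.30 in Tc17 WT, 3.29, 3.40 and 3.41 in Tc1 STAT3-/- and 3.41, 3.48 and 3.48 in Tc1 WT. Fdft1, which joins them into squalene, had 3.25, 3.28 and 3.34 in Tc17 STAT3-/-, 3.17, 3.10 and 3.10 in Tc17 WT, 3.17, 3.22 and 3.40 in Tc1 STAT3-/- and 3.19, 3.21 and 3.34 in Tc1 WT. The Tc17 genotypes did not overlap for either gene, with differences of 0.21 ± 0.09 and 0.14 ± 0.09 (SE, adjusted p = 0.134 and 0.282, limma). The same held for the isomerase Ebp, with 1.10, 1.13 and 1.38 in Tc17 STAT3-/-, 1.04, 0.87 and 1.06 in Tc17 WT, 1.01, 1.00 and 1.36 in Tc1 STAT3-/- and 1.12, 1.26 and 1.35 in Tc1 WT. It held too for the late desaturase Sc5d, with 2.01, 2.06 and 1.89 in Tc17 STAT3-/-, 1.83, 1.83 and 1.49 in Tc17 WT, 1.90, 1.95 and 2.04 in Tc1 STAT3-/- and 1.98, 1.91 and 2.15 in Tc1 WT. Their Tc17 differences were 0.18 ± 0.11 and 0.25 ± 0.09 (SE, adjusted p = 0.272 and 0.0807, limma). In these 4 genes each Tc17 WT array was below its Tc17 STAT3-/- counterpart, but the test was not passed.

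For the other three the Tc17 genotypes overlapped. Mvk, the mevalonate kinase, had 0.44, 0.36 and 0.99 in Tc17 STAT3-/-, 0.10, 0.30 and 0.75 in Tc17 WT, 0.19, 0.23 and 0.82 in Tc1 STAT3-/- and 0.28, 0.33 and 0.61 in Tc1 WT. The technical array was its highest in every group. Tm7sf2, a sterol reductase, had -0.09, -0.14 and -0.04 in Tc17 STAT3-/-, -0.42, -0.26 and -0.10 in Tc17 WT, -0.42, -0.49 and -0.32 in Tc1 STAT3-/- and -0.38, -0.51 and -0.47 in Tc1 WT. Its Tc17 STAT3-/- arrays lay above all Tc1 arrays. Hsd17b7, a reductase of the demethylation steps, had 0.41, 0.40 and 0.45 in Tc17 STAT3-/-, 0.15, 0.25 and 0.45 in Tc17 WT, 0.28, 0.28 and 0.58 in Tc1 STAT3-/- and 0.33, 0.34 and 0.49 in Tc1 WT. Its biological arrays of Tc17 WT were low and the technical one was not. The Tc17 differences were 0.25 ± 0.17, 0.21 ± 0.10 and 0.17 ± 0.10 (SE) for Mvk, Tm7sf2 and Hsd17b7.

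The promoters of 4 members are printed, with letters of the sterol regulatory element, which SREBPs are known to read, and of the CCAAT box, bound by NF-Y, marked where they occur. These promoters are of genes that rose (Hmgcs1, Cyp51, Msmo1) and of a gene that was not called (Srebf2). Each is the 250 bases before the annotated start, from RefSeq on GRCm38.p6, written along the gene's strand, and capitals mark TCACNCCA or CCAAT on either strand. The windows are chr13:119690101-119690350 on the + strand for Hmgcs1, chr5:4104698-4104947 on the - strand for Cyp51, chr8:64733579-64733828 on the - strand for Msmo1 and chr15:82147019-82147268 on the + strand for Srebf2.
Hmgcs1: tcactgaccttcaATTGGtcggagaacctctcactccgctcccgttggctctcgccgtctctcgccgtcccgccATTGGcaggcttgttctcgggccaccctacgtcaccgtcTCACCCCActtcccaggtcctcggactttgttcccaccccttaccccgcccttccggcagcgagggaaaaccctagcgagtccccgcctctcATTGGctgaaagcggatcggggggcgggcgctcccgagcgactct
Cyp51: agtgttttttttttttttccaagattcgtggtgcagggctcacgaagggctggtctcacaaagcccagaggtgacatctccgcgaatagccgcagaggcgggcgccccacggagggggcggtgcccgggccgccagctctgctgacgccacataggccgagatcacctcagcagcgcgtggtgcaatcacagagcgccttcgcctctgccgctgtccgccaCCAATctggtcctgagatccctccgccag
Msmo1: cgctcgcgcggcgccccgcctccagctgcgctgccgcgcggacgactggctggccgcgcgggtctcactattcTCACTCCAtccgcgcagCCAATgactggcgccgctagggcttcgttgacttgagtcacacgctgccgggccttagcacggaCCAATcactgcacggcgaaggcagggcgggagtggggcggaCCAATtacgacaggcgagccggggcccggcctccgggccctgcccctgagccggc
Srebf2: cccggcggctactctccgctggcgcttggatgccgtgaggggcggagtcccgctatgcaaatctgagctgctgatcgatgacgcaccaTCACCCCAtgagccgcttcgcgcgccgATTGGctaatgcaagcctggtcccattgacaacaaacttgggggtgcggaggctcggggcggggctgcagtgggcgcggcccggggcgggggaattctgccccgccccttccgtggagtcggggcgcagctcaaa
The TCACNCCA match begins 137 bases before the start in Hmgcs1, 177 in Msmo1 and 162 in Srebf2, with 34, 9 and 19 bases between it and the nearest CCAAT match. Cyp51 has a CCAAT match alone.

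Promoters of 28 of the 36 members were in the RefSeq table, in windows of 300 bases around the start. Those of Fdps, Fdft1, Sqle, Stard4, Scd1, Scd2, Fads1 and Abcg1 were not used here. On either strand, CCAAT was found in 20 of the 28 (71.4%), against 38% of 27025 promoters, and the GC box GGGCGG in 21 (75%), against 35.9%. The sterol element TCACNCCA was in 3 (10.7%), against 4.3%, and its longer form TCACNCCAC, which contains it, in 1 (3.57%), against 1.22%. Those 3 are Hmgcs1, Msmo1 and Srebf2, printed above. The risers Nsdhl, Dhcr7, Insig1 and Fads2 had no TCACNCCA match, and Dhcr7 and Fads2 had no CCAAT match either. Dhcr7 has 3 annotated starts in the source used, and only the most upstream was searched, as for every gene with several. The SREBP E-box TCACNTGA was in 0 of the 28, against 4.17%, and the LXR element DR4 in 0, against 0.0111%. A match is a run of letters and not a measured binding site, and its lack says only that the letters are not in that window.

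Among the genes that run the SREBP system, Insig1 rose and the others did not pass the test. Insig1, which retains SCAP and is itself an SREBP target, had 3.12, 3.04 and 3.12 in Tc17 STAT3-/- cells, against 2.80, 2.51 and 2.58 in Tc17 WT. In Tc1 it had 2.85, 2.98 and 3.06 in STAT3-/- cells, against 3.08, 3.06 and 3.18 in WT. The Tc17 WT arrays were the lowest 3 of the 12. The rise in Tc17 was 0.43 ± 0.11 (SE, 1.35-fold, adjusted p = 0.0203, limma, n = 2 each). Insig2, the related gene that is not driven by SREBP in the same way, differed by -0.19 ± 0.14 (SE, adjusted p = 0.365, limma).

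The transcription factor genes themselves gave small differences. Srebf2, which codes for SREBP2, the main driver of sterol genes, had 2.69, 2.72 and 2.72 in Tc17 STAT3-/- cells, 2.62, 2.55 and 2.68 in Tc17 WT cells, 2.57, 2.65 and 2.91 in Tc1 STAT3-/- cells and 2.68, 2.64 and 2.89 in Tc1 WT cells. The Tc17 difference was 0.09 ± 0.09 (SE, adjusted p = 0.549, limma), with Tc17 STAT3-/- arrays just above the Tc17 WT ones. Srebf1, whose protein leans towards fatty acid genes, had 0.77, 0.81 and 0.95 in Tc17 STAT3-/- and 0.86, 0.78 and 1.37 in Tc17 WT, then 0.68, 0.86 and 0.88 in Tc1 STAT3-/- and 0.87, 0.93 and 0.84 in Tc1 WT. Its groups overlapped in both cultures, and the high Tc17 WT value was the technical array. The Tc17 difference was -0.14 ± 0.11 (SE, adjusted p = 0.391, limma), and 0.00422 without that array. These are transcript levels, and the cutting of the proteins was not measured. Scap differed by 0.10 ± 0.10 (SE, adjusted p = 0.547, limma).

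Stard4, a sterol carrier and SREBP target, had 1.25, 1.31 and 1.00 in Tc17 STAT3-/-, 0.94, 0.94 and 1.03 in Tc17 WT, 1.47, 1.48 and 1.19 in Tc1 STAT3-/- and 1.23, 1.24 and 1.15 in Tc1 WT. On the biological arrays the STAT3-/- cells were above WT in both cultures, and on the technical arrays in Tc1. The differences were 0.24 ± 0.09 in Tc17 and 0.19 ± 0.09 in Tc1 (SE, adjusted p = 0.078 and 0.998, limma).

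Of the 7 tested fatty acid enzymes, 1 rose in Tc17 STAT3-/- cells and the median was 0.08. Fads2, the desaturase that starts the making of long polyunsaturated fatty acids, had 2.79, 2.89 and 2.78 in Tc17 STAT3-/- cells, against 2.42, 2.42 and 2.37 in Tc17 WT. In Tc1 it had 2.56, 2.81 and 2.93 in STAT3-/- cells, against 2.73, 2.73 and 2.93 in WT. The Tc17 genotypes did not overlap. The rise was 0.41 ± 0.11 (SE, 1.33-fold, adjusted p = 0.0289, limma). The core enzymes gave -0.03 ± 0.08 for Acly, which makes cytosolic acetyl-CoA, 0.12 ± 0.14 for Acaca, which makes malonyl-CoA, and 0.08 ± 0.17 for Fasn, the fatty acid synthase (SE). None of these passed the test, nor did the desaturase Fads1 (0.06). Scd1, which makes monounsaturated acids, had 3.07, 3.13 and 3.38 in Tc17 STAT3-/-, 2.75, 2.90 and 3.39 in Tc17 WT, 2.67, 2.75 and 2.96 in Tc1 STAT3-/- and 2.86, 2.66 and 2.86 in Tc1 WT. Its biological arrays were higher in Tc17 STAT3-/- than in Tc17 WT and its technical arrays nearly equal, with a difference of 0.22 ± 0.14 (SE, adjusted p = 0.307, limma).

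Elovl6, which lengthens palmitate, depended on a single array. It had 2.89, 2.93 and 2.79 in Tc17 STAT3-/- cells, against 3.24, 3.14 and 2.26 in Tc17 WT cells. In Tc1 it had 3.10, 2.85 and 3.04 in STAT3-/- cells, against 2.78, 2.70 and 2.94 in WT cells. Both biological arrays of Tc17 WT were above all Tc17 STAT3-/- arrays, and the Tc17 WT technical array was below all of them. With it the Tc17 difference was -0.09 ± 0.16 (SE, adjusted p = 0.716, limma), and without it -0.32 (adjusted p = 0.0273, limma). Leaving that array out gave 12 called members in Tc17: the 8 above, Pmvk, Stard4 and Scd1 as higher and Elovl6 as lower. The 8 then had rises of 0.29 to 0.69.

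On the LXR side, Abcg1 rose and Mylip did not pass the test. Abcg1, which exports sterols to lipoproteins, had -0.15, -0.07 and -0.14 in Tc17 STAT3-/- cells, against -0.53, -0.32 and -0.88 in Tc17 WT. In Tc1 it had -0.20, -0.16 and -0.14 in STAT3-/- cells, against -0.20, -0.22 and -0.19 in WT. Tc17 WT was the low group, its technical array lowest. The rise was 0.43 ± 0.08 (SE, 1.35-fold, adjusted p = 0.0059, limma), and 0.29 (adjusted p = 0.0437, limma) without the Tc17 WT technical array.

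Mylip, an LXR target whose protein marks lipoprotein receptors for destruction, had -1.08, -1.07 and -1.08 in Tc17 STAT3-/-, -1.19, -1.33 and -1.21 in Tc17 WT, -1.08, -1.46 and -1.49 in Tc1 STAT3-/- and -1.09, -1.26 and -1.23 in Tc1 WT. Its Tc17 difference was 0.15 ± 0.13 (SE, adjusted p = 0.451, limma), although its Tc17 arrays did not overlap. Abca1, the other main exporter, was below the brightness filter at -3.22, -3.42 and -3.32 in Tc17 STAT3-/- and -3.12, -3.01 and -2.71 in Tc17 WT, and -3.36, -2.94 and -3.09 in Tc1 STAT3-/- and -3.50, -3.27 and -2.95 in Tc1 WT, so it was not tested. The mean of the 23 enzymes minus the mean of Abcg1 and Mylip was 2.83 ± 0.01 in Tc17 STAT3-/-, 2.89 ± 0.07 in Tc17 WT, 2.86 ± 0.21 in Tc1 STAT3-/- and 2.84 ± 0.12 in Tc1 WT (SD, n = 2 each). The changes of this gap were -0.06 in Tc17 and 0.02 in Tc1, beside an SD between samples of 0.127 pooled over the groups. Without the Tc17 WT technical array the Tc17 change was 0.00303.

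**Figure D2:**
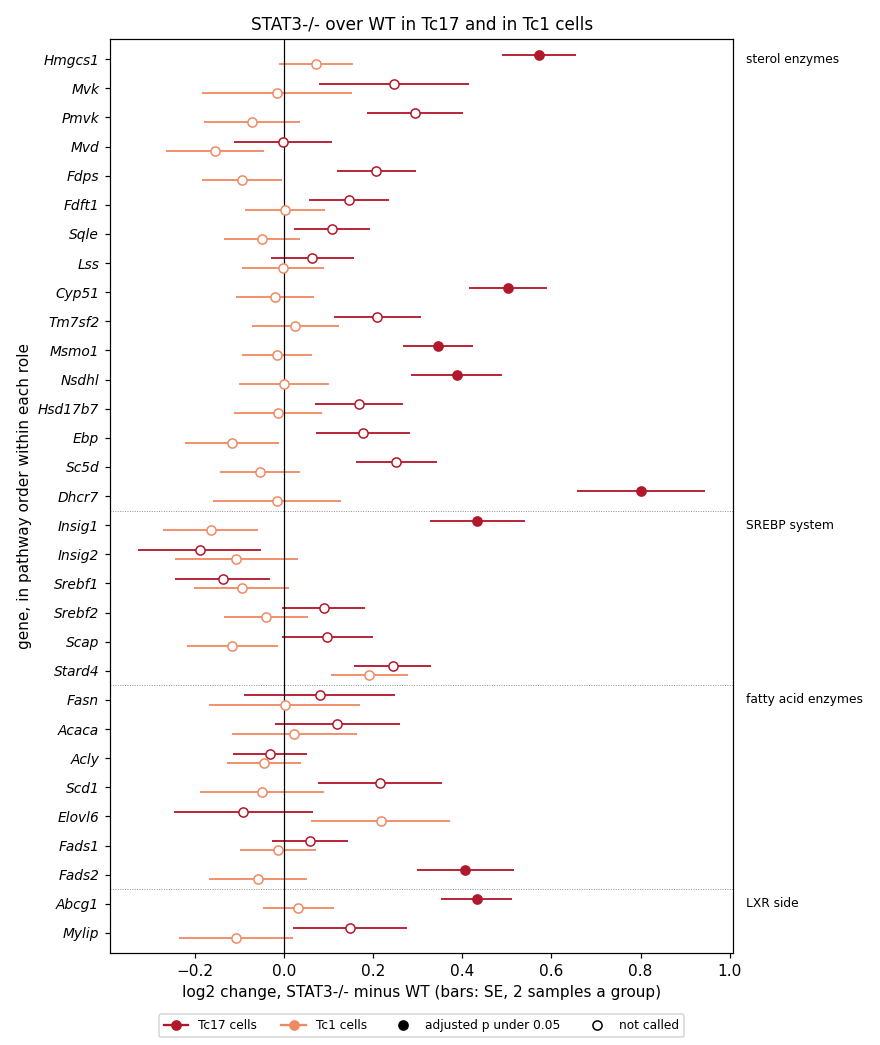
Log2 difference of STAT3-/- minus WT (x axis, bars are SE, 2 samples a group) for the 31 tested members, listed by role down the y axis, in Tc17 and in Tc1 cells, with filled points for an adjusted p under 0.05. The 8 filled points all belong to Tc17 and lie right of 0, and the Tc1 points run between -0.17 and 0.22.

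Array by array, 14 of the 31 members had all 3 Tc17 STAT3-/- arrays above all 3 Tc17 WT arrays, where 19.9% of all tested genes did. Of these 14, 9 were sterol enzymes, and 1 member, Insig2, had all arrays below, where 20.6% of genes did. Pairing arrays of the same kind, 19 of the 31 were higher in STAT3-/- on all 3 pairs and 2 on none, where 27.2% and 28.5% of all tested genes were. Cell cycle genes moved in the same comparison: 8 of 22 tested were called higher and 0 lower, where 11% and 11.3% of all tested genes were, with a median of 0.24. Their mean was 2.45 to 2.50 on the Tc17 STAT3-/- arrays and 2.14 to 2.32 on the Tc17 WT arrays. Mcm5 and Mcm3, parts of the helicase that opens DNA for replication, rose by 0.55 and 0.47 (adjusted p = 0.00355 and 0.00404, limma). The part of cell division in the sterol result was not tested.

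The count of called members depended on the samples of Tc17 STAT3-/- and on the scaling. Without replicate 1 of that group 4 members were called (Hmgcs1, Cyp51, Dhcr7 and Abcg1) and without replicate 2 there were 3 (Hmgcs1, Cyp51 and Dhcr7). Nsdhl and Fads2 also lost their call without either Tc17 WT sample, and Insig1 without Tc17 WT replicate 2. Over the fits that left out a Tc17 sample, the highest adjusted p was 0.172 for Nsdhl, 0.156 for Fads2 and 0.121 for Insig1 (limma). As deposited, with no centring, 14 were called higher and 0 lower. On that scale the median of all tested genes was itself shifted by 0.114, and 1799 of the called genes were higher and 674 lower, against 1085 and 1110 with centring.

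In Tc1 cells, loss of STAT3 gave no called member. By limma 0 of the 31 were called and 0 had an unadjusted p under 0.05, where 0.0913% of all tested genes were called, 0.0304% higher and 0.0608% lower. Differences ran between -0.17 (Insig1) and 0.22 (Elovl6), with a median of -0.02 and SEs of 0.08 to 0.17. Hmgcs1 differed by 0.07 ± 0.08, Cyp51 by -0.02 ± 0.09 and Dhcr7 by -0.02 ± 0.14 (SE). No member's arrays were separated by genotype in Tc1, where 4.79% of all tested genes were wholly above and 4.08% wholly below.

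Whether the genotype difference itself was larger in Tc17 than in Tc1 was tested as an interaction. The difference was more positive in Tc17 for 3 of the 31 members and more negative for 0, where 6.51% of all tested genes were called, 2.75% more positive and 3.76% more negative. Hmgcs1 had 0.50 ± 0.12 (SE, adjusted p = 0.0402, limma), Cyp51 0.52 ± 0.12 (adjusted p = 0.0408) and Dhcr7 0.82 ± 0.20 (adjusted p = 0.0486). Insig1 had 0.60 ± 0.15 and Abcg1 0.40 ± 0.11 (SE, adjusted p = 0.0516 and 0.0743, limma). For Msmo1, Nsdhl and Fads2 the interaction did not pass either (adjusted p = 0.0949, 0.151 and 0.118, limma), so a difference between the cultures is not shown for these 5. Over the 16 sterol enzymes the interaction was positive in 16, with a median of 0.30. No member was called once Tc17 STAT3-/- replicate 1 or 2, Tc1 STAT3-/- replicate 1 or either Tc1 WT replicate was left out. Dhcr7 also lost the call with the replicate number as a block (adjusted p = 0.0523, limma), with cyclic loess (0.0509) and with no filter on dim genes (0.0502), and Hmgcs1 in the last (0.0624). Without the Tc17 WT technical array 5 were called, the 3 above, Insig1 (0.61, adjusted p = 0.043, limma) and Elovl6 (-0.53, adjusted p = 0.0291, limma).

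The culture comparison asked how Tc17 cells stand to Tc1 cells. In WT cells 8 of the 31 members were lower in Tc17 than in Tc1 and 0 higher, where 11.3% of all tested genes were called lower and 11.5% higher. Of the markers of other cell types, Ighm was lower in Tc17 WT (-1.23, adjusted p = 7.63e-05, limma) and Cd4 higher (0.38, adjusted p = 0.0248, limma). The other tested marker of each list went the other way and was not called, Cd79b at 0.18 and Zbtb7b at -0.03. Cd68, at 0.23, was not called either, and the part of these markers in the result was not tested. This comparison shares the Tc17 WT samples with the genotype comparison in Tc17, so the values are given side by side and are not separate evidence. Hmgcs1 fell by 0.71 ± 0.08 (SE, adjusted p = 0.000532, limma) in Tc17 WT against Tc1 WT, beside its rise of 0.57 in Tc17 STAT3-/- against Tc17 WT. Dhcr7 fell by 0.59 ± 0.14 (adjusted p = 0.0188, limma), beside a rise of 0.80.

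The other 6 were lower by smaller amounts: Insig1 (-0.43), Msmo1 (-0.38), Pmvk (-0.37), Fads2 (-0.37), Cyp51 (-0.37) and Abcg1 (-0.36). Pmvk had 1.04, 1.02 and 1.44 in Tc17 STAT3-/-, 0.73, 0.81 and 1.08 in Tc17 WT, 1.13, 1.13 and 1.18 in Tc1 STAT3-/- and 1.15, 1.21 and 1.35 in Tc1 WT. Its Tc17 WT arrays lay below all Tc1 WT arrays, and it passed the test here (adjusted p = 0.0368, limma) but not between genotypes. Nsdhl, called between genotypes, had -0.26 ± 0.10 here (SE, adjusted p = 0.0967, limma). In all, 15 of the 31 had every Tc17 WT array below every Tc1 WT array, where 19% of all tested genes did, and 0 had every array above. Cell cycle genes were lower too, 13 of 22 called, where 11.3% of all tested genes were. Without Tc1 WT replicate 1 or replicate 2, 1 member, Hmgcs1, was called. Without the Tc17 WT technical array 9 were called: Abcg1 lost its call (-0.22, adjusted p = 0.113, limma), Stard4 was lower (-0.27, adjusted p = 0.0403, limma) and Elovl6 was higher in Tc17 WT (0.39, adjusted p = 0.0109, limma).

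**Figure D3:**
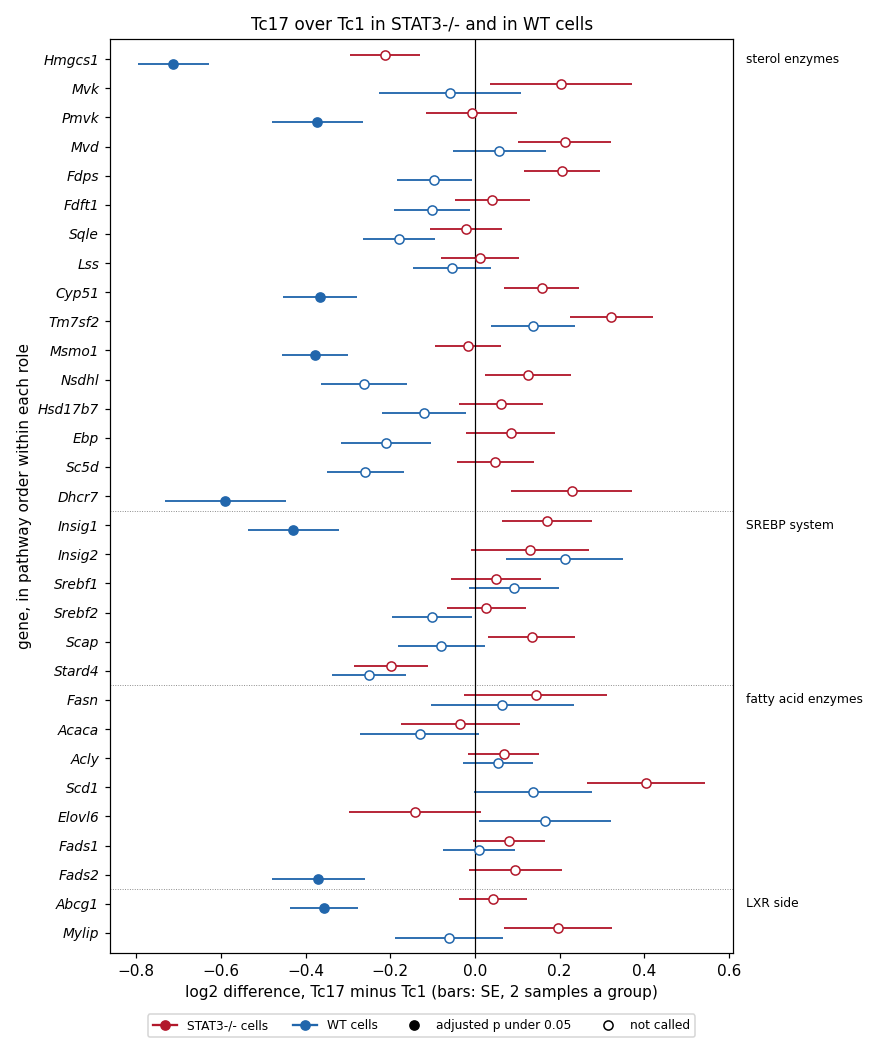
Log2 difference of Tc17 minus Tc1 (x axis, bars are SE, 2 samples a group) for the 31 tested members by role, in STAT3-/- and in WT cells, with filled points for an adjusted p under 0.05. The 8 filled points are all of WT cells and lie left of 0, while no STAT3-/- point is filled.

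In STAT3-/- cells 0 of the 31 members were called between Tc17 and Tc1 by limma, where 2.52% of all tested genes were called (1.26% higher and 1.27% lower), and 5 had an unadjusted p under 0.05. These were Tm7sf2 (0.32 ± 0.10), Scd1 (0.40 ± 0.14), Fdps (0.21 ± 0.09), Hmgcs1 (-0.21 ± 0.08) and Stard4 (-0.20 ± 0.09), all with SE. Among markers of other cell types, Cd68 was called lower in Tc17 STAT3-/- than in Tc1 STAT3-/- (-0.98). The 2 tested B cell markers were higher, by 0.35 and 0.81, with 1 of them called, and the part of these markers was not tested. Hmgcs1 had every Tc17 STAT3-/- array below every Tc1 STAT3-/- array, where 9.88% of all tested genes did, and 4 members had every array above, where 8.37% did. By group, the 16 sterol enzymes averaged 1.97 and 2.02 in the 2 Tc17 STAT3-/- samples, 1.71 and 1.72 in Tc17 WT, 1.84 and 1.97 in Tc1 STAT3-/- and 1.91 and 1.98 in Tc1 WT. Tc17 WT was the low group, Tc17 STAT3-/- lay just above Tc1 STAT3-/-, and the Tc1 WT range overlapped both. The 7 fatty acid enzymes averaged 2.74 and 2.75 in Tc17 STAT3-/-, 2.61 and 2.67 in Tc17 WT, 2.59 and 2.73 in Tc1 STAT3-/- and 2.59 and 2.71 in Tc1 WT, with Tc17 WT inside the range of Tc1.

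**Figure D4:**
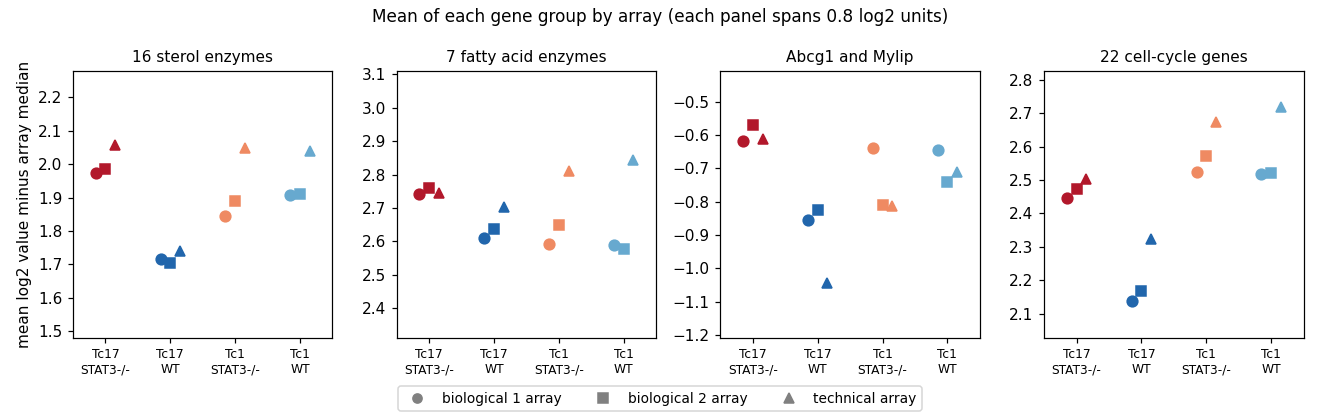
Mean log2 level of each gene list relative to the array median (y axis, each of the 4 panels spanning 0.8 log2 units), 1 point per array, with groups along the x axis in the order Tc17 STAT3-/-, Tc17 WT, Tc1 STAT3-/- and Tc1 WT. For the sterol enzymes the Tc17 WT arrays lie at or under 1.74, below the other 9 arrays, and for the fatty acid enzymes they lie among the Tc1 arrays.

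Neighbouring pathways were read in Tc17 STAT3-/- over Tc17 WT from further lists, and their counts stand beside the 11% of all tested genes called higher and 11.3% called lower. These lists are short, and nothing particular to a list is read from its count. Of 4 tested other sterol genes 1 rose and 0 fell: Tmem97, an SREBP-regulated membrane protein, rose by 0.38 ± 0.11 (SE, adjusted p = 0.0424, limma), and Lbr, a sterol reductase of the nuclear envelope, had 0.31 ± 0.10 (adjusted p = 0.0536, limma). Of 10 tested genes of the isoprenoid branch 2 rose and 2 fell. Coq2, which builds ubiquinone, rose by 0.48 ± 0.09 (adjusted p = 0.00549, limma), and Rabggtb, a subunit of the enzyme that prenylates Rab proteins, fell by 1.53 ± 0.33 (adjusted p = 0.0114, limma). The SD of Rabggtb between the 2 Tc17 WT samples was 0.68.

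Of 8 tested genes of SREBP processing and sterol sensing 0 rose and 1 fell, Syvn1, an endoplasmic reticulum ubiquitin ligase, by 0.43 ± 0.12 (SE, adjusted p = 0.032, limma), and Rnf139 had 0.30 ± 0.09 (adjusted p = 0.0512, limma). Of 9 sterol transport and esterification genes 1 rose and 1 fell. Npc1, which moves cholesterol out of lysosomes, rose by 0.34 ± 0.10 (adjusted p = 0.035, limma), and Gramd1a, which carries it from the plasma membrane, fell by 0.50 ± 0.10 (adjusted p = 0.0102, limma).

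The 5 tested further LXR targets and oxysterol genes held the largest changes among the genes named from these lists. Pltp, a phospholipid transfer protein, averaged -1.67 ± 0.01 in Tc17 STAT3-/- and 0.44 ± 0.13 in Tc17 WT (SD, n = 2 each), a difference of -2.12 ± 0.10 (SE, adjusted p = 3.59e-06, limma). Smpdl3a, a phosphodiesterase, averaged 0.27 ± 0.01 in Tc17 STAT3-/- and -1.38 ± 0.15 in Tc17 WT (SD, n = 2 each), a difference of 1.65 ± 0.12 (SE, adjusted p = 4.09e-05, limma). Both interactions passed, at -1.96 for Pltp and 1.46 for Smpdl3a (adjusted p = 0.000136 and 0.00182, limma). Pltp was thus lower and Smpdl3a higher in Tc17 STAT3-/-, and whether either gene answered to LXR in these cells was not tested. Of 11 other fatty acid synthesis genes 3 rose and 1 fell. Acss2, which makes acetyl-CoA from acetate, rose by 0.49 ± 0.14 (SE, adjusted p = 0.0398, limma) and Acsl4, which activates long polyunsaturated acids, fell by 0.46 ± 0.11 (adjusted p = 0.0196, limma). Of 9 fatty acid oxidation genes 0 rose and 1 fell, the dehydrogenase Acadl, by 0.71 ± 0.10 (adjusted p = 0.00121, limma), with an interaction of -0.71 (adjusted p = 0.0178, limma). Its medium-chain relative Acadm had -0.29 ± 0.10 (adjusted p = 0.0676, limma).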

How the data were processed

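RNA was hybridised to 12 Affymetrix arrays, 3 in each of 4 groups. The deposited values are log2 signals made with RMA and Partek, per the submitters' processing notes, with versions and order not given in the sources used here. Of 41345 probe sets, 23521 carry 1 gene symbol, 1814 several and 16010 none in the platform annotation, and 23328 of the first matched RefSeq on GRCm38.p6 by Entrez ID. Where a gene had several probe sets (1082 genes, among the members Scap) the brightest was kept, which gave 22180 genes. A gene was tested where at least 1 group mean reached 5 as deposited, which removed 12318. Each array's median over the 9862 tested genes was subtracted, technical arrays were averaged with the second biological replicate, and limma 3.58.1 in R 4.3.3 (lmFit, eBayes, 4 residual and 4.82 prior degrees of freedom) was fitted over all 4 groups.

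Genes were called at an adjusted p under 0.05 (Benjamini-Hochberg, all tested genes). The fit was tested on simulated data. The members and lists were chosen with earlier results of these data known. Members called in Tc17 or in the interaction, Abca1, Abcg1, Mylip, Srebf1, Srebf2 and those whose calls differ between settings are given by array, the rest by range and count, and of each other list the 2 tested genes with the largest change in Tc17. Replicate numbers were checked as pairs by 6 correlations of same-numbered samples' deviations. Between genotypes in the same type of culture they were 0.0988 in Tc17 and 0.455 in Tc1. Without the technical arrays these were 0.0291 and 0.172. Across the types of culture they were 0.16, 0.109, 0.098 and 0.143. Not every one of the 6 was over 0.1, so the numbers were not treated as pairs in the main fit. The genotypes were grown mixed, so samples of the same number and type of culture may share a culture, which the labels do not say. The p-values of the main fit take no account of such sharing. The replicate block among the alternatives is a single term over all groups, and pairing of genotypes within each type of culture was not fitted. Alternatives were other scalings, filters, probe sets, handling of the technical arrays, fits and samples left out.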

Additional observations from a re-analysis of the deposited data

Results flagged for a closer look

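The difference between Tc17 and Tc1 in the STAT3-/- over WT change passed limma's interaction test for 3 of the 31 members. Of all tested genes 6.51% passed it, 2.75% more positive and 3.76% more negative. Each of these members lost the call in some fits that left out a sample. Hmgcs1 differed by 0.50 (adjusted p = 0.0402, limma), with changes of 0.57 in Tc17 and 0.07 in Tc1. Its call was lost with no filter on dim genes (adjusted p = 0.0624, limma). Cyp51 differed by 0.523 (adjusted p = 0.0408), with changes of 0.50 in Tc17 and -0.02 in Tc1. Dhcr7 differed by 0.818 (adjusted p = 0.0486), with changes of 0.80 in Tc17 and -0.02 in Tc1, and this call was lost with the replicate number as a block, with cyclic loess and with no filter on dim genes (adjusted p = 0.0523, 0.0509 and 0.0502).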

How the results depend on the processing

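Besides the 8 fits that leave out a sample, 15 alternatives were run, 1 of them (technical arrays as own samples with array kind as a block) chosen after seeing the data. In Tc17 the called members, all higher, numbered 14 with values as deposited and 18 with the median taken over all genes or over all probe sets. Of the 9862 tested genes 1799, 2203 and 2266 were called higher at these settings, against 1085 in the main fit. The count of members fell in some fits with a sample left out. The interaction called 5 without the technical arrays, 5 without the Tc17 WT technical array, 7 and 6 with the medians over all genes and all probe sets, 1 with no filter on dim genes, 5 with a trended robust fit, 6 with array kind as a block, and 0 to 3 with a sample left out. Tc17 against Tc1 in WT called 13 lower with either of those medians, where 2231 and 2232 tested genes were called lower, against 1115 in the main fit. Its count also fell in some fits with a sample left out. No member was called in Tc1, or between cultures in STAT3-/-, under any of these. With the replicate number as a block, 9 were called in Tc17, 2 in the interaction (Dhcr7 lost, adjusted p = 0.0523, limma) and 9 between cultures in WT. The Tc17 change of enzymes against efflux genes was 0.136 with no dim filter, where Abca1 enters, and -0.205 with the filter at 6, where Mylip leaves. Without the Tc17 WT technical array it was 0.00303, and with a sample left out -0.113 to -0.0118. In Tc1 it was -0.132 to 0.169. The calls of Hmgcs1, Cyp51 and Dhcr7 in Tc17 were kept under every alternative run, no called value changed sign, and 198 uncalled values did. Centring set the split of called genes: in Tc17 49.4% were higher, against 72.7% as deposited, 81.2% and 82.4% with those medians and 76.3% with no filter, and in WT cultures 50.5% against 28%, 18.6% and 18.5%. Dim genes such as Abca1 are limited by signal over background.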
